A study of Mus musculus with 6 samples.

Results

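The 7 mouse genes described here encode the inhibitors of cyclin-dependent kinases, Cdkn1a, Cdkn1b, Cdkn1c, Cdkn2a, Cdkn2b, Cdkn2c and Cdkn2d. They were found by name among the 54532 genes of the count table, and each name matched 1 row. RNA was sequenced from Glu-tag cells, a mouse enteroendocrine line with small intestine given as its source, in 6 libraries. Of these, 3 came from cells with a control hairpin and genotype WT, called shControl, and 3 from cells labelled as a stable knockdown of IRS2, called shIRS2. The series text speaks of biological triplicates, while every sample description carries the same replicate number. Each group has libraries numbered 1, 2 and 3 in the titles, and no label says what a number marks, whether a line was 1 clone or which promoter drove the hairpins. The line is known to come from a gut tumour of mice with an SV40 large T antigen transgene, and that antigen binds the RB and p53 proteins.

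Cyclin-dependent kinases drive the cell through its cycle when a cyclin is bound to them, and 2 families of small proteins hold them back. The CIP/KIP family, p21 from Cdkn1a, p27 from Cdkn1b and p57 from Cdkn1c, binds complexes of cyclin and kinase, those of CDK2 above all. The INK4 family, p16 from Cdkn2a, p15 from Cdkn2b, p18 from Cdkn2c and p19 from Cdkn2d, binds CDK4 and CDK6 and keeps D cyclins off them, which keeps RB active. Cdkn2a also encodes ARF from another start and reading frame, a protein that shields p53 from MDM2. In endocrine tissue CDKN1B and CDKN2C are known as genes that the tumour suppressor menin keeps active.

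Libraries held 14991019 to 19790073 counts. RNA of Irs2 itself was no lower with its hairpin: it ran from 23.0 to 34.2 CPM (counts per 1000000, scaled between libraries by TMM) in the control group and from 29.2 to 38.6 CPM in the group labelled shIRS2. Directions between the groups are therefore those of the labels. The labelled cell type was not borne out by its defining genes either. Of 12 enteroendocrine markers, 7 had 0 counts in all libraries, Gcg, Pcsk1, Chga, Neurod1, Pyy, Nts and Gip, and Chgb, Scg2, Isl1 and Cck had 1 to 10 counts in total. Pax6 alone of that list passed the filter on low counts, at 24.8 ± 2.65 CPM (SD, n = 3) in the control libraries. The epithelial genes Epcam and Cdx2 had 1 and 0 counts in total and Krt8 had 40206. Among 8 fibroblast markers 5 passed the filter on low counts, Thy1 was at 0 and Col3a1 held 74378 counts, most of the summed level of the list. The summed level of that list ran from 637 to 962 CPM with the control hairpin and from 866 to 986 CPM in the group labelled shIRS2, and its part in the results was not tested. Immune and endothelial lists summed to at most 3.24 and 2.05 CPM.

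RefSeq starts on GRCm38.p6 were listed for 6 of the 7 genes, and not for Cdkn1c. The 250 bases before the start are shown for the 4 genes that were expressed and that, as given below, were low together in the same libraries. Each reads 5′ to 3′ on the strand of the gene, and capitals mark the motif matches described after them.
Cdkn1a, first start, plus strand, chr17:29090729-29090978: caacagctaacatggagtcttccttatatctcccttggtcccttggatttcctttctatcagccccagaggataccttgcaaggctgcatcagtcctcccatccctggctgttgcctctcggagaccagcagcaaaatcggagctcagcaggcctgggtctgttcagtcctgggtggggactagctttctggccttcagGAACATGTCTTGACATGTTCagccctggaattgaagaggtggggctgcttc
Cdkn1a, second start, plus strand, chr17:29093519-29093768: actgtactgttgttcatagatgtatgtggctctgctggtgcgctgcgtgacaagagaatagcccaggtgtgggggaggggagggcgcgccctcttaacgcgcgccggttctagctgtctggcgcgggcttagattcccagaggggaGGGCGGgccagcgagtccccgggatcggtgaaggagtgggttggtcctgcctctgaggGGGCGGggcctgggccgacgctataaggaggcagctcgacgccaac
Cdkn1b, plus strand, chr6:134920151-134920400: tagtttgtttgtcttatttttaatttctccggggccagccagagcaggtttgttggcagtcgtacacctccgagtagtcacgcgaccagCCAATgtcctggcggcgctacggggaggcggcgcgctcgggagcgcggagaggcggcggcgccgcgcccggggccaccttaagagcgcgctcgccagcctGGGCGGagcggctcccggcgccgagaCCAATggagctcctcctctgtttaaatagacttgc
Cdkn2c, first start, minus strand, chr4:109666757-109667006: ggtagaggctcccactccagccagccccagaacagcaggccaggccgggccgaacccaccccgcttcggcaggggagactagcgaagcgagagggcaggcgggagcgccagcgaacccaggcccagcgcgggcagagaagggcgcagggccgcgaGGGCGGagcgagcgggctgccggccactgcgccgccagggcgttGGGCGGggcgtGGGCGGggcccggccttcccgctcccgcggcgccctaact
Cdkn2d, minus strand, chr9:21291210-21291459: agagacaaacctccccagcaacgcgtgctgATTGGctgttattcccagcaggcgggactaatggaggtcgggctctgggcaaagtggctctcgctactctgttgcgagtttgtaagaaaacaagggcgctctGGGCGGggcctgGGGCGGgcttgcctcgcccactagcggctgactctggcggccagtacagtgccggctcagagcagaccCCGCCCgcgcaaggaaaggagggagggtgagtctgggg

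A second listed start of Cdkn2c had no match and is not printed. The capitals before the first Cdkn1a start are a p53 response element, the site that binds p53 as paired decamers, found with at most 1 mismatch and no spacer. Of 32851 listed windows of 250 bases, 25 held such an element, 0.0761%. In the other windows the capitals are GGGCGG, the GC box bound by Sp factors, or CCAAT, the box bound by NF-Y, each searched on both strands. GGGCGG was found before the second Cdkn1a start and before Cdkn1b, Cdkn2c and Cdkn2d, and 32.7% of all windows held it. CCAAT or its complement was found before Cdkn1b and Cdkn2d, against 33.8% of all windows. The TATA box TATAAA, the E-box CACGTG, the composite site TGATGNAA of C/EBP and ATF factors, and the forkhead site GTAAACA had no match in these windows. They were held by 12.4%, 6.02%, 3.45% and 3.17% of all windows. The windows of Cdkn2a and Cdkn2b, which had 0 counts as given below, were also searched and are not printed. The GC box was found 2 times before the first listed start of Cdkn2a, so it was not confined to the expressed genes. None of these motifs was found before the second listed start of Cdkn2a or before Cdkn2b. A match is a description of letters and not evidence of binding.

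Expression divided the family into 4 genes that were present in every library and 3 that were absent or nearly so. Between genes, levels are compared as deposited FPKM, which divides by the listed gene length. Cdkn2d stood at 23.9 ± 6.25 FPKM (SD over 6 libraries) and Cdkn2c at 23.6 ± 3.17. Cdkn1a followed at 12.7 ± 5.28 FPKM and Cdkn1b at 12.4 ± 3.24. The first and second genes of this order did not differ beyond their spread, Cdkn2d being the higher in 3 of 6 libraries, and neither did Cdkn1a and Cdkn1b, with Cdkn1a the higher in 3 of 6. Cdkn2c lay above Cdkn1a in 6 of 6 libraries, by 1.85-fold on average, although the ranges over the libraries overlapped.

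**Figure D1:**
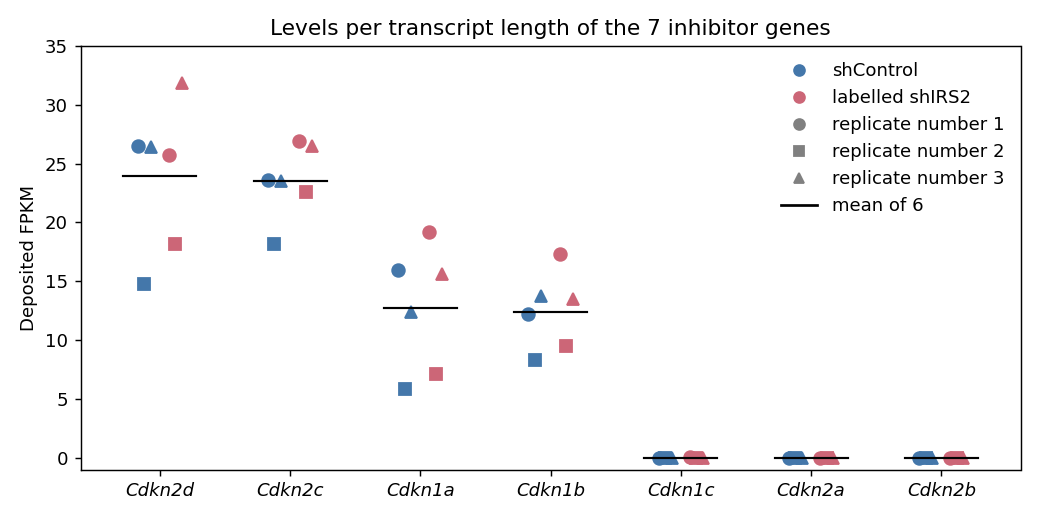
Deposited FPKM (vertical axis, linear) of the 7 inhibitor genes in each of the 6 libraries, coloured by hairpin group and shaped by replicate number, with a line at the mean of 6. The points of Cdkn2d run from 14.8 to 31.8 FPKM and those of Cdkn2c from 18.1 to 26.9. The points of Cdkn1a and Cdkn1b lie between 5.86 and 19.2, so the ranges overlap. Cdkn1c, Cdkn2a and Cdkn2b lie at or near 0. The squares of number 2 are the lowest point of each group in the 4 expressed genes.

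The INK4 family was split between its members. Cdkn2a, the gene for p16 and ARF on chromosome 4 (minus strand, 89274471 to 89294653 in mm10), had 0 counts in all 6 libraries, and so did Cdkn2b (minus strand, 89306299 to 89311039). A count of 0 over all libraries allows up to 0.0295 CPM, or 0.0252 FPKM for Cdkn2a and 0.0213 FPKM for Cdkn2b, a limit set at 3 counts in the pooled libraries that covers counting error only. Against these limits Cdkn2c was at least 935-fold higher per length than Cdkn2a and at least 1108-fold higher than Cdkn2b. Cdkn2c, on the same chromosome at 109660876 to 109667189 (minus strand), had 957 to 1236 counts per library, and Cdkn2d, on chromosome 9 at 21288410 to 21291407 (minus strand), had 457 to 789. The 2 INK4 genes that stand apart from the Cdkn2a locus were thus the ones with RNA.

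The 0 counts extended beyond both genes. Mtap, which encodes methylthioadenosine phosphorylase of the methionine salvage pathway and is the nearest protein-coding gene on one side, held 27286 counts over the 6 libraries at a mean of 82.3 FPKM, above each inhibitor gene. Its end lies 114 kb from the upstream end of Cdkn2a. From the pseudogene Tgif2-ps1 to Dmrta1, a transcription factor gene, 9 annotated genes over 478 kb, Cdkn2a and Cdkn2b among them, held 2 counts in total, and 7 of them held 0. Genes without counts are common in the table, where 25979 of 54532 genes held any count. Apart from Cdkn2a, Cdkn2b and Dmrta1, the genes of this stretch are noncoding genes or pseudogenes. The search reached 400 kb from the upstream end of Cdkn2a, so the end of the stretch was not determined. On the far side of Mtap the noncoding genes Gm12602, Wincr1, AL805899.1 and AL805899.2 held 671, 240, 964 and 75 counts, and Mir31, a microRNA gene, held 0. Between Mtap and Tgif2-ps1 the snoRNA gene Gm26490 held 12 counts. Apart from Mtap and Dmrta1 these neighbours were chosen after their values were seen. Counts of RNA do not tell a missing stretch of DNA from a silent one.

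**Figure D2:**
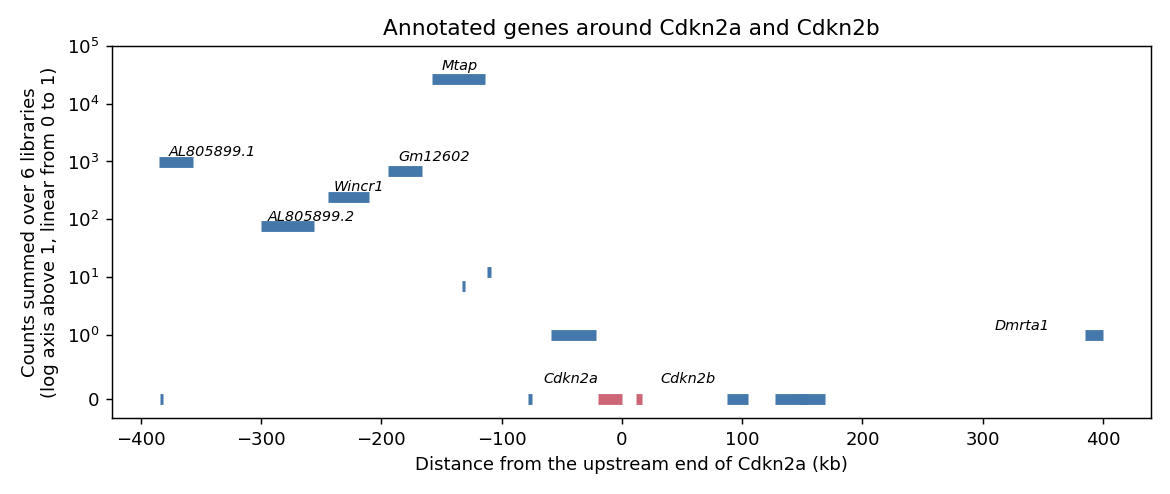
Counts summed over 6 libraries (vertical axis, logarithmic above 1 and linear from 0 to 1) of annotated genes around Cdkn2a, drawn by their distance in kb from its upstream end (horizontal axis). Mtap at 27286 counts lies on the left, while Cdkn2a and Cdkn2b (red) and the genes to their right hold 0 or 1 count.

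In the CIP/KIP family Cdkn1c was nearly absent. It lies on chromosome 7 at 143458339 to 143461050 (minus strand), in an imprinted domain. It held 2 counts, both in the library labelled shIRS2 numbered 1, and 0 in the other 5, which is 0.0197 CPM over all libraries with an exact Poisson 95% upper limit of 0.0711 CPM. Of 9 further genes of that domain, Th had 0 counts and Kcnq1, Phlda2, Slc22a18 and Ascl2 did not pass the filter on low counts either. Kcnq1ot1, the long noncoding RNA that silences the domain in cis on the paternal chromosome, was present at 15.2 ± 2.57 CPM with the control hairpin and 16.5 ± 2.06 CPM in the group labelled shIRS2 (SD, n = 3 each). Nap1l4 and Cd81, at the edges of the domain, stood at 117 ± 10.8 and 95.7 ± 12.1 CPM in the control libraries (n = 3).

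Between the hairpin groups no inhibitor gene passed the test. Of the 13472 genes tested by edgeR, 0 were called at an adjusted p of 0.05, a background of 0%, and 262, or 1.94%, had an unadjusted p under 0.05, while DESeq2 called 2 and limma-voom called 0. The 4 inhibitor genes tested had log2 differences from 0.16 to 0.30, all above 0, where the median of all genes was 0.00. Each had an edgeR adjusted p of 1.00. With the replicate number as a block 1 gene of all was called, 0.00742%, and it was no inhibitor gene. In that fit 3 of the 4, Cdkn1a, Cdkn1b and Cdkn2c, had an unadjusted p under 0.05, as did 9.16% of all genes, with edgeR adjusted p-values of 0.220, 0.462 and 0.340. Their blocked 95% intervals ran from 0.14 to 0.45, from 0.04 to 0.41 and from 0.08 to 0.36, all above 0, and that of Cdkn2d ran from -0.01 to 0.36. In all 4 the groups overlapped, and groups that do not overlap made up 6.35% of all genes.

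Cdkn1a, the p53 target that halts the cycle after DNA damage, lies on chromosome 17 at 29090976 to 29100727 (plus strand). Its CPM in the control libraries numbered 1, 2 and 3 were 57.1, 20.9 and 44.2, and in the libraries labelled shIRS2 they were 68.8, 25.6 and 55.6. The number 2 library was the lowest in both groups, and each library labelled shIRS2 lay above the control library of its number, by 0.27, 0.29 and 0.33 on the log2 scale. The hairpin difference was 0.30 (SE 0.43, 95% interval -0.70 to 1.30). That interval runs from 0.614-fold to 2.46-fold. Leaving 1 library out of this unpaired fit leaves the replicate numbers unbalanced between the groups, and the sign then moved. The difference was -0.0184 without control library 2, -0.00520 without shIRS2 library 1, and 0.62 without control library 1. With both libraries numbered 2 left out, which keeps the numbers balanced, it was 0.297.

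Cdkn1b, which holds resting cells out of the cycle and is removed by the SCF ligase with Skp2, lies on chromosome 6 at 134920401 to 134925513 (plus strand). Its CPM by number were 56.1, 37.8 and 62.9 with the control hairpin and 79.2, 43.3 and 61.7 in the libraries labelled shIRS2. Number 2 was again the lowest in each group, and the pair numbered 3 had the other sign, with log2 ratios of 0.50, 0.19 and -0.03. The hairpin difference was 0.23 (SE 0.23, 95% interval -0.29 to 0.76), and 0.0052 without the library labelled shIRS2 numbered 1. Lockd, a noncoding RNA gene on the same strand 3.58 kb past its end, chosen after its values were seen, had 10.4 ± 1.14 against 11.4 ± 2.68 CPM (SD, n = 3 each).

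Cdkn2c, an INK4 gene with broad expression, had CPM of 63.9, 48.9 and 63.5 with the control hairpin and 72.8, 60.9 and 71.4 in the libraries labelled shIRS2. The pairs had log2 ratios of 0.19, 0.31 and 0.17, and the number 2 library labelled shIRS2 lay below 2 of the control libraries. The hairpin difference was 0.22 (SE 0.13, 95% interval -0.06 to 0.50), the narrowest interval of the 4 genes. Cdkn2d, the INK4 gene known for moving with the cell cycle, had CPM of 42.0, 23.4 and 41.8 with the control hairpin and 40.8, 28.8 and 50.3 in the libraries labelled shIRS2. Number 2 was the lowest in each group. Its pairs had -0.04, 0.30 and 0.27, and its hairpin difference was 0.16 (SE 0.25, 95% interval -0.40 to 0.73). With control library 2 left out it turned to -0.0685, with shIRS2 library 3 left out to -0.0351, and with shIRS2 library 2 left out it was 0.35.

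**Figure D3:**
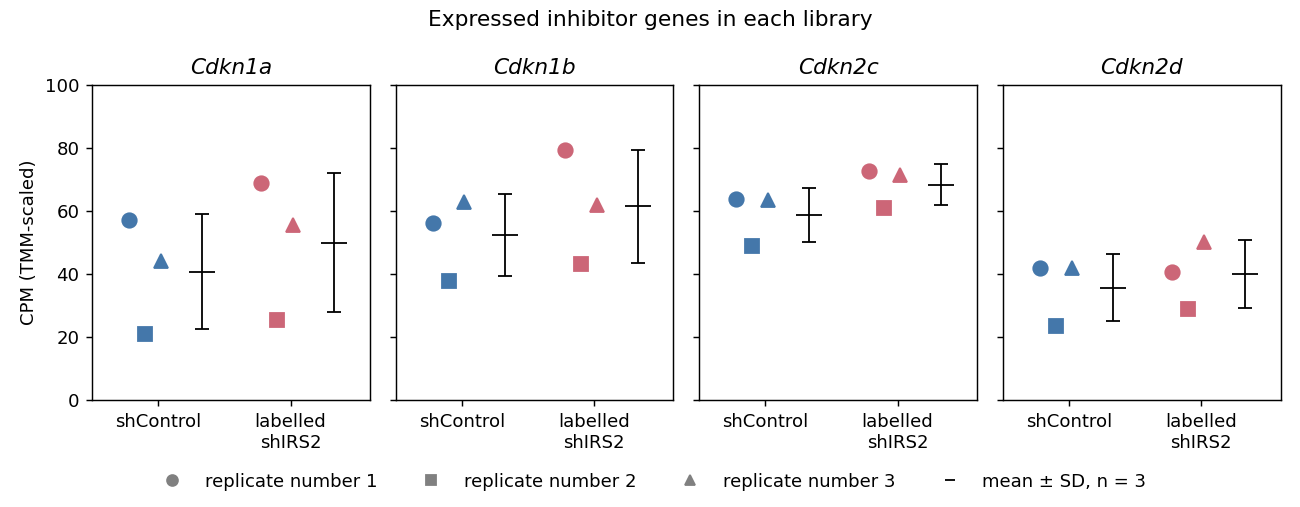
CPM (vertical axis, TMM-scaled) of the 4 expressed inhibitor genes in each library by hairpin group, with shapes for the replicate number and bars for mean ± SD (n = 3). In each panel and each group the square, number 2, is the lowest, from 20.9 CPM for Cdkn1a to 60.9 CPM for Cdkn2c, and the 2 groups overlap.

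The levels of these 4 genes differed by replicate number. All 4 were lowest in the library numbered 2 in both groups, a pattern that 26% of all genes tested showed. Between the numbers 1, 2 and 3, with the hairpin group as a further term and 2 libraries per number, all 4 passed the edgeR test over the 3 numbers, against 19.6% of genes. All 4 were lower in number 2 than in number 1, where 7.42% of genes were lower and 15.3% differed either way, and all 4 were higher in number 3 than in number 2, where 11.2% were higher and 21.4% differed either way. Both calls together held for 5.63% of genes. These shares moved with the libraries kept: over the 3 numbers 2638 genes passed, but 798 with control library 2 left out and 973 with shIRS2 library 2 left out, while 2 against 1 went from 2056 genes to 595 and 649. For 3 against 2 the count went from 2884 to 834 and 1162. Between the numbers 3 and 1 none of the 4 passed, where 0.238% of genes did. These p-values measure the spread between these libraries, part of which may be technical.

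Cdkn1a had the largest difference of the 4. Number 2 lay below number 1 by a log2 difference of -1.44 (SE 0.09, edgeR adjusted p 5.68e-07) and number 3 lay above number 2 by 1.10 (SE 0.09, adjusted p 1.41e-05). Its number 2 mean of 23.2 CPM was 58.8% below the mean of the others. Cdkn1b had -0.73 (SE 0.11, adjusted p 0.000574) against number 1 and 0.63 (SE 0.11, adjusted p 0.00116) for number 3 against number 2, and its number 2 mean lay 37.6% below the others. Cdkn2d had -0.67 (SE 0.11, adjusted p 0.000968) and 0.82 (SE 0.11, adjusted p 0.000176), and its number 2 mean lay 40.3% below the others. Cdkn2c moved least, at -0.32 (SE 0.08, adjusted p 0.0155) and 0.30 (SE 0.08, adjusted p 0.0154), or 19.2% below. Its calls were lost with DESeq2, at adjusted p-values of 0.0645 and 0.0651, without the term for the hairpin, at 0.0826 and 0.0825, and without either library numbered 2. Its call between numbers 3 and 2 was also lost without the control library numbered 3, at an adjusted p of 0.117. The other 3 genes kept both calls without each library in turn. Between numbers 3 and 1 the log2 differences were -0.34 for Cdkn1a, -0.10 for Cdkn1b, -0.02 for Cdkn2c and 0.15 for Cdkn2d, with adjusted p-values from 0.141 to 0.965.

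**Figure D4:**
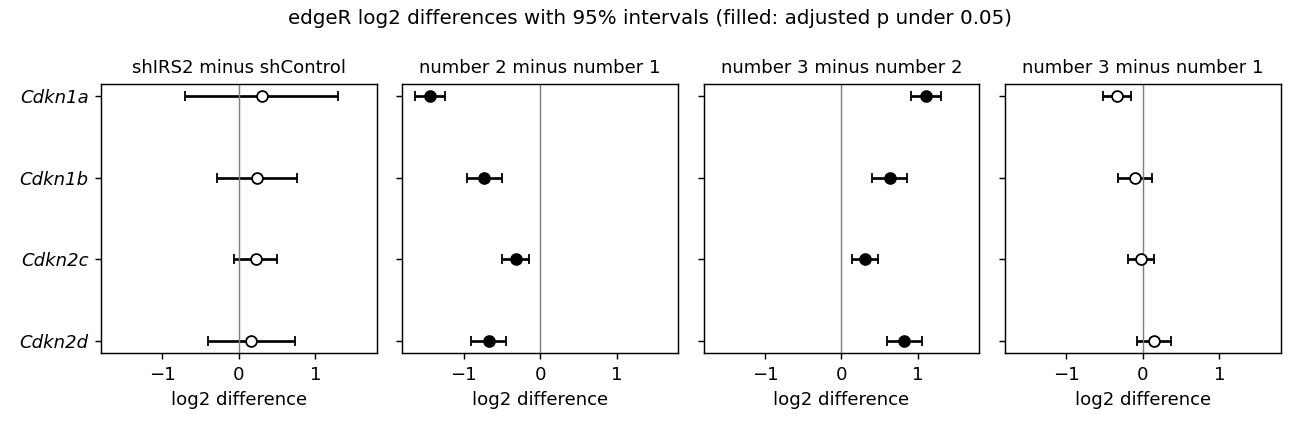
edgeR log2 differences (horizontal axis) with 95% intervals of the 4 expressed inhibitor genes between hairpin groups and between replicate numbers, filled where the adjusted p is under 0.05. The hairpin intervals, from the fit with the group as its only term, all include 0, while number 2 lies below number 1 by 0.32 to 1.44 and number 3 above number 2 by 0.30 to 1.10.

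Of the variation of Cdkn1a over the 6 libraries, 94.5% of the sum of squares of log2 CPM lay between the numbers and 5.47% between the hairpin groups. Cdkn2d had 90.4% and 5.43%, Cdkn1b 80.95% and 9.81%, and Cdkn2c 61.6% and 35.5%. The median gene had 61.4% and 8.97%, and the numbers have 1 more degree of freedom than the groups. The standard deviation of log2 CPM was 0.69 for Cdkn1a and 0.21 for Cdkn2c, against a median of 0.17. The 4 genes also followed each other, with pairwise Pearson correlations of log2 CPM from 0.84 to 0.94 over the 6 libraries, which share the numbered structure. Among 9509 candidate genes the highest correlations with Cdkn1a were those of Bnip3, a mitophagy receptor gene induced by hypoxia, Dhtkd1 and Foxc1, at 0.998, 0.995 and 0.995. For Cdkn1b they were Rgs16, Dnajb9 and Ero1l, at 0.996, 0.994 and 0.994, the last a thiol oxidase of the endoplasmic reticulum. For Cdkn2c they were Mpv17l2, Med13l and Gnpda1, and for Cdkn2d Mtmr14, Kmt5c and Slc25a51, from 0.991 to 0.998. With so many candidates and 6 libraries these are descriptions only.

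The kinases and cyclins that these proteins restrain moved the other way in part. All 12 were tested, and between numbers 2 and 1, 5 were higher, against 7.85% of all genes, and 1 was lower. Between numbers 3 and 2, 5 were lower, against 10.2% of all genes, and 1 was higher. Ccnd1, which encodes cyclin D1, rose from a mean of 211 CPM in number 1 to 363 in number 2 (log2 difference 0.78, edgeR adjusted p 1.57e-05) and stood at 230 in number 3. Cdk6, a target of the INK4 proteins, stood at 185, 283 and 193 CPM in numbers 1, 2 and 3 (0.61 for number 2 against 1, adjusted p 0.000101). Ccnd2 and Ccne2, the genes of cyclins D2 and E2, were higher in number 2 by 0.34 and 0.31. Of 13 RB and E2F genes, 2 were higher and 3 lower in number 2 than in number 1, where 7.42% of all genes were lower. Between numbers 3 and 2, 2 were higher and 0 lower, with E2f1 higher by 0.44 (adjusted p 0.00172). Called between numbers 2 and 1 were E2f3 and E2f8, higher by 0.36 and 0.35, and Tfdp2, a dimerisation partner, lower by a log2 difference of -0.36. Rb1, the retinoblastoma gene, named after its values were seen, stood at 14.8, 9.46 and 13.7 CPM and was lower by -0.65 (adjusted p 0.0191).

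None of 9 proliferation markers passed in any contrast between the numbers, Mki67, Top2a, Pcna and 6 Mcm genes, and their summed level ran from 3966 to 4085 CPM in the number 2 libraries and from 3847 to 4016 CPM in the others. In the ubiquitin ligases that remove p21 and p27, 1 of 10 genes was higher in number 2 than in number 1 and none was lower, near the 7.85% of all genes that were higher. This was Skp2, the subunit that recognises p27, at 93.2, 110 and 83.2 CPM in numbers 1, 2 and 3 (log2 difference 0.24, edgeR adjusted p 0.0489). Between numbers 3 and 2, 3 of the 10 were lower, against 10.2% of all genes, and 1 was higher, against 11.2%. Skp2 was among the lower ones (-0.40, edgeR adjusted p 0.00231).

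Genes of the p53 network did not move in 1 direction with Cdkn1a. Of 20 tested, 3 were higher and 2 lower in number 2 than in number 1, against 7.85% and 7.42% of all genes, with a median log2 difference of -0.08. Between numbers 3 and 2, 3 were higher and 2 lower, against 11.2% and 10.2% of all genes. The differences below are for number 2 against number 1. Sesn2, a stress-induced inhibitor of mTORC1 signalling, stood at 109 CPM in number 1, 36.3 in number 2 and 108 in number 3 (-1.58, edgeR adjusted p 1.08e-07). Gdf15, a secreted stress factor, stood at 8.71, 1.64 and 10.6 CPM (-2.41, adjusted p 2.79e-05). Aen, a p53-induced nuclease, had the opposite order at 31.4, 59.8 and 35.5 CPM (0.93, adjusted p 2.68e-05), and Trp53 itself stood at 159, 199 and 153 CPM (0.32, adjusted p 0.0207). Pmaip1 and Perp had 0 counts in all libraries.

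Between numbers 3 and 2, 4 of 20 other regulators of the inhibitor genes were higher and 3 lower, against 11.2% and 10.2% of all genes. Among the same 20, 3 were higher and 3 lower in number 2 than in number 1, against 7.85% and 7.42% of all genes. Myc, whose protein represses Cdkn1a and Cdkn2b together with Miz-1, stood at 334, 486 and 380 CPM in numbers 1, 2 and 3 (0.54, edgeR adjusted p 0.000526). Klf6 was higher by 0.29. Foxo4, of the FoxO factors that activate Cdkn1b, stood at 33.7, 24.6 and 36.5 CPM (-0.46, adjusted p 0.0158), and Men1, the gene of menin, at 94.4, 75.5 and 99.1 CPM (-0.32, adjusted p 0.0151). Of 22 tested Polycomb genes and other regulators of the Cdkn2a locus, 6 were lower and 1 higher in number 2 than in number 1, against the same shares. Between numbers 3 and 2, 8 of these 22 were higher and 2 lower, against 11.2% and 10.2% of all genes. In the contrast of number 2 with number 1, genes of this list moved as follows. Cbx7, a chromodomain subunit of Polycomb, was lower by a log2 difference of -0.35, and of the ETS factors Ets2 was lower by -0.51 and Ets1 higher by 0.30. In the hairpin comparison 0 genes of these lists passed, with list medians from -0.02 to 0.04. Mtap stood at 234, 343 and 224 CPM in numbers 1, 2 and 3 (0.55, adjusted p 0.000311).

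**Figure D5:**
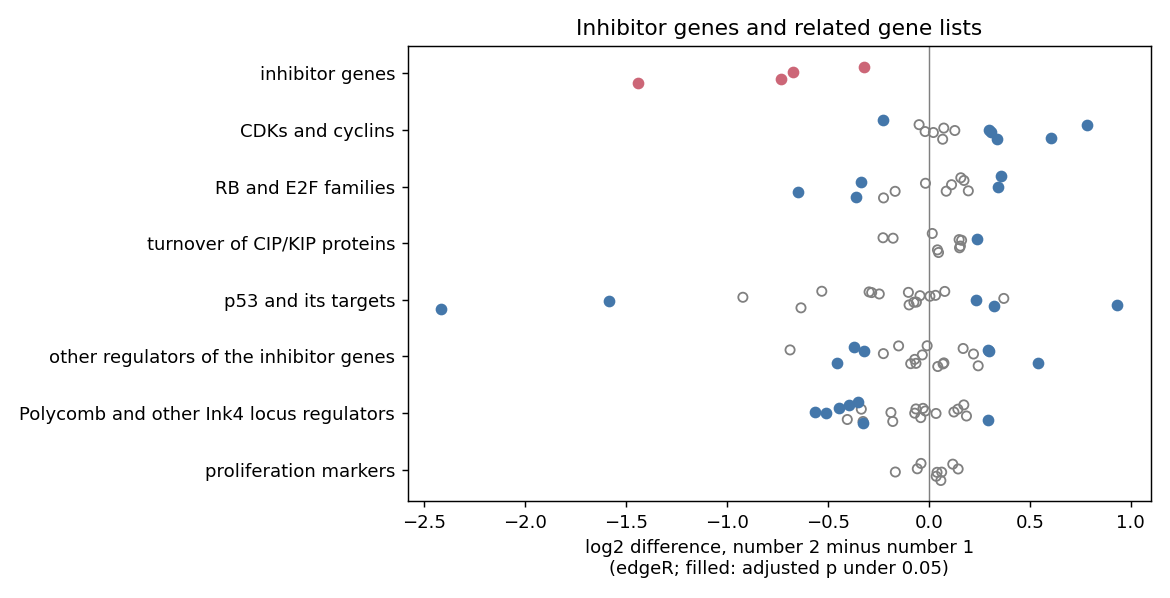
edgeR log2 differences (horizontal axis), libraries numbered 2 minus libraries numbered 1, of the 4 tested inhibitor genes (red) and the tested genes of 7 related lists, each point 1 gene, filled (blue in the lists) where the adjusted p is under 0.05 and open grey elsewhere. The inhibitor genes all lie below 0, the kinases and cyclins mostly at or above it, and the 9 proliferation markers are all open.

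Mitochondrial transcripts took 1.63% and 1.71% of counts in the control library and the library labelled shIRS2 numbered 2, and 1.25% to 1.61% in the others. Pdgfra and Pdgfrb of the fibroblast list moved between the numbers in opposite directions, by -0.69 and 0.36 for number 2 against number 1, and the list summed to 637 and 866 CPM in the number 2 libraries and to 643 to 986 CPM in the others. The part of either in the low inhibitor levels was not tested, and in bulk RNA fewer cells of a type and less RNA per cell cannot be told apart. The replicate numbers and whatever else differed between the cultures or library preparations cannot be told apart.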

How the data were processed

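The authors deposited raw counts per gene, whole numbers for 54532 Ensembl mouse genes, and a second table of FPKM. Per the submitters' processing notes the build was mm10. No aligner, counter or strand setting was given in the sources used here. Reads shared by overlapping genes may thus be split in an unknown way. Libraries were strand-specific by dUTP, per the labels' protocols. The deposited FPKM equal the count over the listed length and a library total 0.985 to 1.02 times the summed counts. Columns named NC and S were read as control and sh-IRS2 libraries with the number of the title, from the names alone.

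Counts were fitted in R 4.3.3 with edgeR 4.0.16 (filterByExpr, 13472 genes, TMM, robust quasi-likelihood test, two-sided, Benjamini-Hochberg over all genes tested). The hairpin fit had the group as its only term, and the fit between numbers had group and number. Alternatives used DESeq2 1.42.0, limma 3.58.1, other filters and scalings, and libraries left out. The tests were checked on simulated data. The 3 pairs of same-numbered libraries correlated in their deviations from the group means by 0.167, 0.576 and 0.260, all over 0.1. The numbers were used in the pair ratios, in the fit between numbers and in the alternative with the block. The main hairpin fit and its intervals were unpaired. Control 3 with shIRS2 1 and control 1 with shIRS2 3 reached 0.199 and 0.189, above the first pair, so only number 2 stood apart and no label says what a number marks. No 2 libraries of a group agreed within counting noise. Genes named from lists were those with the smallest p in the hairpin fit or between the numbers, up to 4 per list, and likeness was ranked by Pearson correlation among genes with at least 5 CPM. The members and lists were chosen with earlier results of these data known. The result for 1 listed gene is not reported here.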

Additional observations from a re-analysis of the deposited data

How the results depend on the processing

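With the replicate block the hairpin differences were 0.30 (SE 0.07, 95% interval 0.14 to 0.45) for Cdkn1a, 0.22 for Cdkn1b, 0.22 for Cdkn2c and 0.17 for Cdkn2d, with edgeR adjusted p-values of 0.220, 0.462, 0.340 and 0.572, so no call of these genes changed; 1 gene of all was called. DESeq2 called 2 genes and, in an alternative chosen after seeing the data, 4 with the block, and edgeR called 6 without a filter on low counts, none of them an inhibitor gene. In the fit with the group as its only term, single libraries were also left out, which left the replicate numbers unbalanced between the groups. The hairpin difference then ran from -0.0184 to 0.62 for Cdkn1a and from 0.01 to 0.43 for Cdkn1b. For Cdkn2c it ran from 0.10 to 0.30 and for Cdkn2d from -0.0685 to 0.35. The genes called stayed at 0.

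Between numbers, 2638 genes passed over all 3, 2056 for 2 against 1, 2884 for 3 against 2 and 32 for 3 against 1. DESeq2 gave 1641, 1205, 1744 and 52. For 3 against 1 the count was 204 without a filter and 0 with the number as the only term. Without single libraries these counts ran from 798 to 3774, 595 to 2851, 834 to 3923 and 64 to 264, the first 3 lowest without the control library numbered 2. A number then has 1 library, assumed to vary like the others. Number 2 minus number 1 ran from -1.46 to -1.41 for Cdkn1a, -0.93 to -0.51 for Cdkn1b, -0.39 to -0.25 for Cdkn2c and -0.84 to -0.51 for Cdkn2d. Number 3 minus number 2 ran from 1.07 to 1.13, 0.43 to 0.81, 0.23 to 0.37 and 0.73 to 0.91, and number 3 minus number 1 from -0.36 to -0.31, -0.31 to 0.11, -0.0580 to 0.0238 and -0.0161 to 0.31, in the same order of genes. For Cdkn2c DESeq2 gave -0.32 and 0.30 and the number as the only term gave -0.32 and 0.30, no longer past the threshold. The cause was not tested.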
